A study of Mus musculus with 11 samples.

Results

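Axon guidance ligands and their receptors were examined in the trigeminal ganglia of Brn3a knockout mouse embryos. Members were all probe sets whose only annotated gene symbol names an ephrin, an Eph receptor, a semaphorin, a plexin, a neuropilin, a Slit, a Robo, a netrin, Dcc or an Unc5 receptor. The rule found 97 probe sets of 63 genes among the 24899 probe sets on both array types, which name 13675 genes. On U74Av2 there were 58 probe sets of 45 genes among 12488, and on U74Bv2 39 probe sets of 29 genes among 12411, with 11 genes on both. By role, 55 probe sets measured ligands and 40 measured receptors. The remaining 2 matched the rule by name alone: Unc50 is not a guidance receptor, and Plxna4os1 is an opposite-strand transcript of the Plxna4 locus.

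The trigeminal ganglion holds the sensory neurons of the face, and Brn3a is the POU-domain transcription factor encoded by Pou4f1. The ganglia came from embryos at embryonic day 13.5 that were knockout, heterozygote or wild-type for Brn3a, and each array held RNA from 10 to 12 pooled ganglia of 1 genotype. The labels name no other allele or agent, and tell neither the strain nor how the knockout was made. U74Av2 had 2 knockout, 2 heterozygote and 2 wild-type arrays, and U74Bv2 had 2 knockout, 2 heterozygote and 1 wild-type array. The study chose this stage because sensory axon growth is then already defective in the mutant, ahead of most of the neuron death.

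A growing axon is steered by ligands that its growth cone reads through surface receptors. Ephrins bind Eph receptor tyrosine kinases, secreted class 3 semaphorins bind neuropilins that signal together with plexins, Slits bind Robo receptors, and netrins attract through Dcc and repel through Unc5 receptors. In the trigeminal system, repulsion by class 3 semaphorins through Nrp1 and Nrp2 is known to keep the peripheral nerve branches bundled. In a pooled ganglion each signal sums neurons, glia, vessels and connective tissue, so fewer cells of a type and less RNA per cell cannot be told apart.

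The 250 bases upstream of the RefSeq start of 3 receptor genes are shown: Nrp2 and Epha7, whose calls against each other genotype are described below, and Nrp1, the other neuropilin. Coordinates are of build GRCm38.p6, all 3 genes lie on the plus strand, and capitals mark each CG dinucleotide. The Nrp2 stretch is chr1:62703067-62703316, the Nrp1 stretch is chr8:128358823-128359072 and the Epha7 stretch is chr4:28812881-28813130. Epha7 has 2 starts in the RefSeq table, of which the farthest upstream was taken.
Nrp2: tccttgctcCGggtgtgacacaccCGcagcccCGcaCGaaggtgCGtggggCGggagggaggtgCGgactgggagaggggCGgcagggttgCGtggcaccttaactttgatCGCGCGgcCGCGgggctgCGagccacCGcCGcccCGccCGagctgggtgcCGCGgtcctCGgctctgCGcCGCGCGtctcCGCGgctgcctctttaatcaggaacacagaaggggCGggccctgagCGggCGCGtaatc
Nrp1: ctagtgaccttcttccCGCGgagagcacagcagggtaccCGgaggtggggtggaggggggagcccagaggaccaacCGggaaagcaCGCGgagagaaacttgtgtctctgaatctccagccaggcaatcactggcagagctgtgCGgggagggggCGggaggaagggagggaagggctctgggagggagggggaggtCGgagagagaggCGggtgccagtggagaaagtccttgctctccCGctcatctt
Epha7: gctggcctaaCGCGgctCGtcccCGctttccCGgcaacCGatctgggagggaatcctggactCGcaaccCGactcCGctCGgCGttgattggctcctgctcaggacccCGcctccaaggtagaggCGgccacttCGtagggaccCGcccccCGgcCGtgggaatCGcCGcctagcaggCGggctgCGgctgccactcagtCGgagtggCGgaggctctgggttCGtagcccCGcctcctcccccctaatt
These stretches held 32 CG dinucleotides in Nrp2, 11 in Nrp1 and 25 in Epha7, against a median of 6 (quartiles 2 and 16) over 32851 RefSeq starts. Their GC content was 72.4% in Nrp2, 64.4% in Nrp1 and 69.2% in Epha7, against a median of 52.4% over all starts. The letters ATAATTAAT, a Brn3-type site, were searched on both strands in the upstream stretches of the 8 genes with a called member that the table holds, and were found in 0 of them, against 0.307% of 27025 genes. The shorter ATTAAT, contained in that motif, was likewise found in 0 of the 8 (5.11% of all genes), and so was the octamer ATGCAAAT (1.81% of all genes). These counts say only that those letters are not in these windows.

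The deposited value of a probe set was a MAS5 signal on a linear scale, and differences were taken on log2(signal + pseudocount) and tested with limma. A probe set was called at an adjusted p under 0.05 over all probe sets of its array type. The dimmest 40% of probe sets were not tested, which left 38 of the 58 members on U74Av2 and 29 of the 39 on U74Bv2. Pou4f1 itself read 550 and 904 in the knockout arrays, 2196 and 3570 in heterozygote arrays and 3313 in the wild-type (knockout minus wild-type -2.15 ± 0.34 SE on the log2 scale, limma adjusted p = 0.0245). The position of its probe set relative to the deletion, not given in the sources used here, limits what that fall says about the labels. On U74Av2 the difference between arrays of label number 1 and number 2 was partly shared between genotypes (correlations of 0.533, 0.571 and 0.619). Results there are therefore also given with the number as a block. The 3 probe sets of 18S ribosomal RNA illustrate this split, with geometric means of 12803 and 974 in the knockout arrays of number 1 and 2, 6745 and 518 in heterozygote arrays, and 5173 and 511 in the wild-types. The part of this difference in the results was not tested. Comparisons of knockout with wild-type, with heterozygote and with all other arrays share the knockout arrays and are not independent of each other.

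Most guidance genes did not pass the test. The exceptions on U74Bv2 were the receptor Nrp2, which rose, and the receptors Epha7 and Epha10 and the ligand Efna3, which fell, with 1 probe set of Sema6a higher than in heterozygotes. Against wild-type, 2 of 29 tested members were called (6.9%), where 1.4% of all probe sets were. Against heterozygote the count was 3 of 29 (10.3%), where 1.71% of all were called, and against all other arrays it was 4 of 29 (13.8%), where 2.93% of all were called. Leaving out 1 array moved these counts: against wild-type to 5 without heterozygote array 1 and to 4 without heterozygote array 2 or knockout array 2, against heterozygote to 5 without knockout array 2, and against all other arrays to 2 without heterozygote array 1 or knockout array 1. On U74Av2 no member was called in any comparison without the block, where 0.255% of all probe sets were called against wild-type, 0.188% against heterozygote and 0.872% against all other arrays. At an unadjusted p under 0.05, 7 of 38 members passed there against wild-type, with 5.11% of all probe sets doing so. With the block, 4 of 38 members were called against wild-type (1.74% of all), 2 against heterozygote (1.73% of all) and 6 against all other arrays (3.57% of all). Each of these counts includes both probe sets of Nrp1, which were the only 2 called against heterozygote.

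Members moved both ways. Knockout minus wild-type differences were positive for 19 of 38 members on U74Av2 and for 19 of 29 on U74Bv2. Their median was 0.01 on U74Av2 and 0.08 on U74Bv2, beside 0.02 over all probe sets on each type. The median absolute difference was 0.32 on U74Av2 and 0.38 on U74Bv2, beside 0.18 and 0.23 over all probe sets. Ligands had a median of -0.09 over 19 probe sets on U74Av2 and 0.12 over 16 on U74Bv2, and receptors had 0.06 over 18 and 0.08 over 13. On U74Bv2 the knockout arrays lay wholly above the single wild-type array for 14 members and wholly below it for 9, where 70.2% of all probe sets were apart in one direction or the other. They lay above all other arrays for 10 of 29 members and below them for 7, where 1111 and 995 of all 7446 probe sets did. On U74Av2 these counts were 5 and 7 of 38 members, where 636 and 571 of all 7453 did. Such an order alone was not taken as a call.

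**Figure D1:**
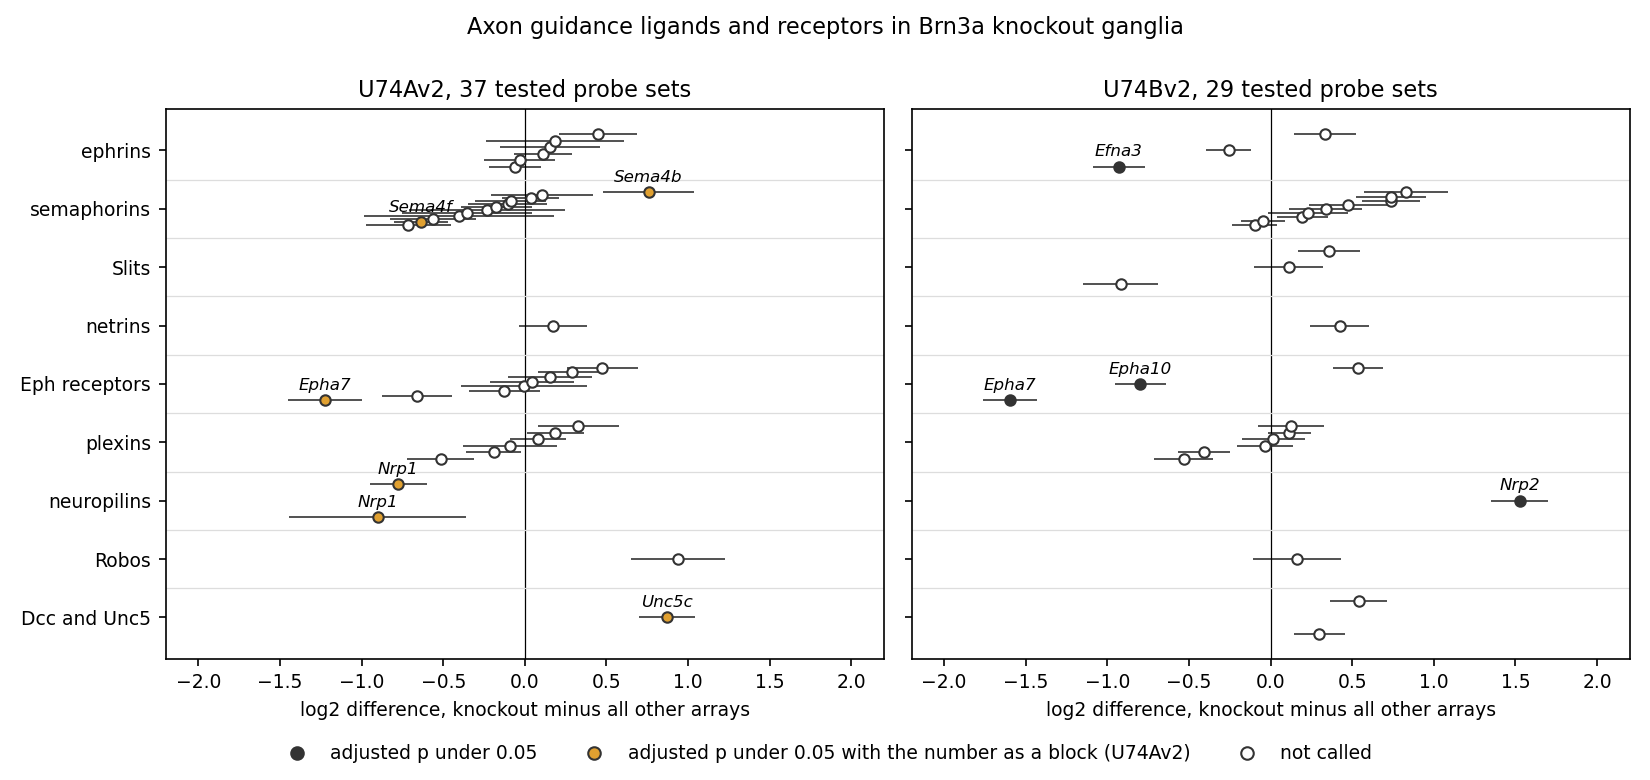
Log2 difference of knockout minus all other arrays (x axis) for each tested guidance probe set, by family, on U74Av2 and U74Bv2; points are limma estimates, lines are ± 1 SE, filled points were called, orange ones only with the array number as a block, and Unc50 is left out. Nrp2 stands apart on the positive side at 1.53 and Epha7 on the negative side at -1.60, both on U74Bv2, while most members lie within 0.5 of 0.

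Among ephrins, the ligands of Eph receptors, Efna3 fell in knockout ganglia by its U74Bv2 probe set. Efna3 read 547 and 696 in the knockout arrays, 1249 and 1104 in heterozygote arrays and 1318 in the wild-type (108873_at). Both knockout arrays lay below all 3 others. Efna3 was 1.90-fold lower than in all other arrays (-0.93 ± 0.16 SE, limma adjusted p = 0.0159) and differed from wild-type alone by -1.04 ± 0.23 (adjusted p = 0.0875). The call was lost on leaving out heterozygote array 1 (adjusted p = 0.0727), knockout array 1 (0.107) or wild-type array 1 (0.0613). Without heterozygote array 1 the difference from wild-type alone passed (adjusted p = 0.0332), and without knockout array 2 so did those from wild-type (0.0428) and from heterozygote (0.0361). The U74Av2 probe set of Efna3 read 2514 and 1584 in the knockout arrays, 2158 and 1731 in heterozygote arrays and 2340 and 1985 in the wild-types (100289_at). These genotypes overlapped, and the difference from wild-type was -0.11 ± 0.28 (adjusted p = 1.00), so the probe sets of this gene did not give the same picture. Efna5, a ligand of EphA receptors and the brightest ephrin on U74Bv2, read 3161 and 2915 in the knockout arrays, 2092 and 3126 in heterozygote arrays and 2106 in the wild-type (117030_at). The knockout and heterozygote arrays overlapped (knockout minus wild-type 0.52 ± 0.26, adjusted p = 0.525). Its U74Av2 probe set was too dim to be tested, at 59.8 and 63.4 in the knockout arrays, 86.2 and 71.3 in heterozygote arrays and 46.3 and 17.4 in the wild-types. The transmembrane ligand Efnb1 was measured on both types, with differences from wild-type of -0.01 ± 0.21 and -0.22 ± 0.20. Of 6 tested ephrin probe sets on U74Av2 and 3 on U74Bv2, none was called apart from Efna3, under the block on U74Av2 included.

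Among Eph receptors, Epha7 and Epha10 fell. Epha7, a receptor for ephrin-A ligands, read 572 and 429 in the knockout arrays, 1567 and 1477 in heterozygote arrays and 1776 in the wild-type (116816_at, U74Bv2). Both knockout arrays were far below the other 3. Epha7 was 3.35-fold lower than in wild-type (-1.74 ± 0.23 SE, limma adjusted p = 0.0108), lower than in heterozygote (-1.53 ± 0.19, adjusted p = 0.00585), and 3.03-fold lower than in all other arrays (-1.60 ± 0.17, adjusted p = 0.00117). Heterozygote and wild-type differed by -0.22, within the error of 0.23. The call against wild-type was lost when dim probe sets were also tested (adjusted p = 0.0527), and both the others were kept in each alternative tried. The U74Av2 probe set 92906_at of Epha7 read 85.4 and 69.7 in the knockout arrays, 269.9 and 242.9 in heterozygote arrays and 191.1 and 296.2 in the wild-types. Here too the knockout arrays lay below all others. The U74Av2 difference from all other arrays was -1.22 ± 0.23 (adjusted p = 0.0593, and 0.0161 with the number as a block), and that from wild-type was -1.18 ± 0.29 (adjusted p = 0.371, and 0.0842 with the block). Within the arrays of number 1 the difference from wild-type was -0.83, and within number 2 it was -1.53. A further probe set, 92905_at, was too dim to be tested, with 34.8 and 22.3 in the knockout arrays, 17.0 and 44.5 in heterozygote arrays and 47.1 and 118.0 in the wild-types. Its knockout and heterozygote arrays overlapped, and both genotypes lay below the wild-type arrays.

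Epha10, an Eph receptor that lacks kinase activity, read 552 and 686 in the knockout arrays, 1173 and 1151 in heterozygote arrays and 1006 in the wild-type (105679_at, U74Bv2). The knockout arrays were the lowest of the 5. The fall against all other arrays was 1.74-fold (-0.80 ± 0.16 SE, limma adjusted p = 0.0279), against -0.67 ± 0.22 from wild-type alone (adjusted p = 0.282) and -0.86 ± 0.18 from heterozygote (adjusted p = 0.0553). The call was lost on leaving out any single array (adjusted p between 0.0551 and 0.174), when dim probe sets were also tested (0.0531) and without the intensity trend (0.0673), whereas that against heterozygote passed without knockout array 2 (0.0405). Ephb1, a receptor for ephrin-B ligands and the brightest Eph receptor on U74Bv2 by mean signal, lay the other way, at 1614 and 1555 in the knockout arrays, 1032 and 1259 in heterozygote arrays and 964 in the wild-type (113858_at). Its knockout arrays were the highest, but the difference from wild-type of 0.69 ± 0.21 did not pass (adjusted p = 0.234). Ephb6, a kinase-inactive receptor, read 920 and 544 in the knockout arrays, 825 and 624 in heterozygote arrays and 802 and 532 in the wild-types (162371_r_at, a probe set of relaxed design). Its genotypes overlapped, with differences from wild-type of 0.11 by this probe set and 0.36 by 102871_at, both with an adjusted p = 1.00. Of 8 tested Eph receptor probe sets on U74Av2, 5 were positive and 3 negative against wild-type. Epha6, another ephrin-A receptor, had the next most negative value after Epha7, at -0.68 ± 0.28 (adjusted p = 0.914).

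**Figure D2:**
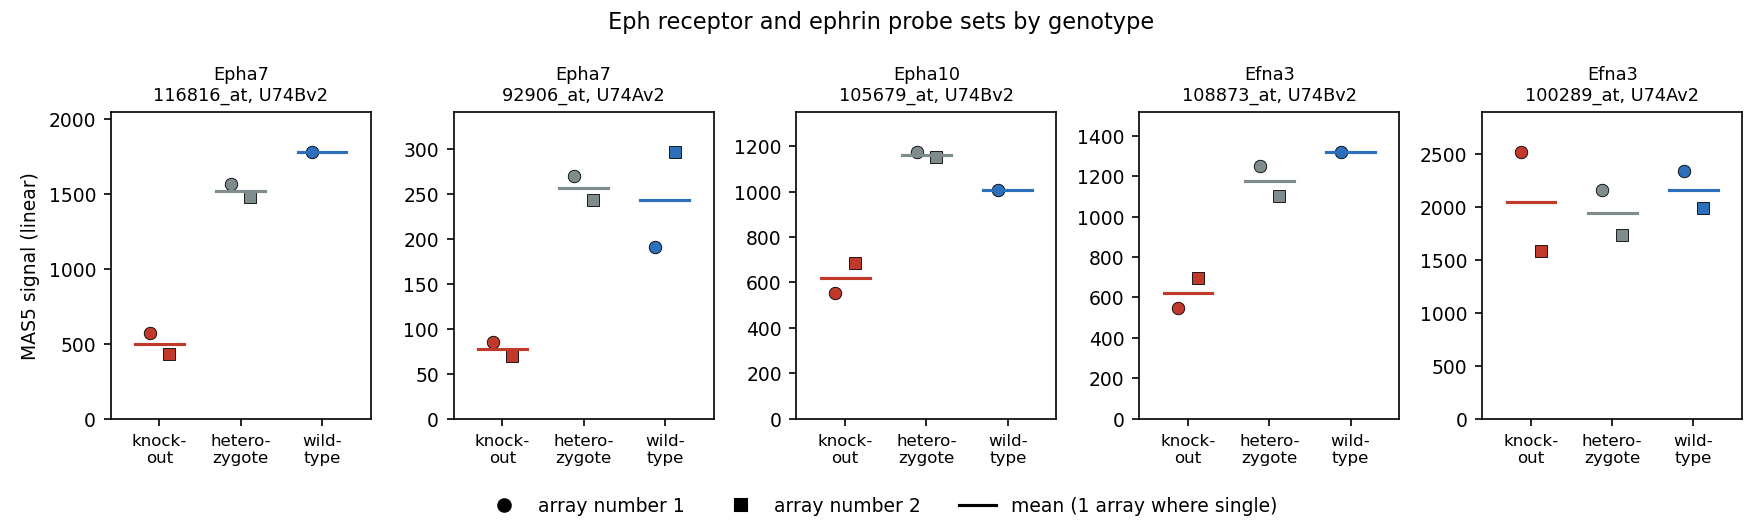
MAS5 signal (y axis, linear) of Epha7, Epha10 and Efna3 probe sets in each array, by genotype; circles are arrays of number 1, squares those of number 2, and lines are means (a single array for wild-type on U74Bv2). The knockout arrays are lowest in the 4 left panels, while the genotypes overlap for the U74Av2 probe set of Efna3, between 1584 and 2514.

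Neuropilins, the binding receptors for class 3 semaphorins, moved in opposite directions. Nrp2 rose: it read 1828 and 1663 in the knockout arrays, 598 and 673 in heterozygote arrays and 467 in the wild-type (116382_at, U74Bv2). The knockout arrays stood well above all others. The rise was 3.47-fold over wild-type (1.80 ± 0.21 SE, limma adjusted p = 0.00771), 2.62-fold over heterozygote (1.39 ± 0.17, adjusted p = 0.00614) and 2.88-fold over all other arrays (1.53 ± 0.17, adjusted p = 0.00184). The heterozygote lay 0.41 ± 0.21 above wild-type, which did not pass (adjusted p = 1.00).

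Nrp1, which binds Sema3a and was the brightest receptor probe set tested on U74Av2, read 3037 and 3975 in the knockout arrays, 6070 and 6266 in heterozygote arrays and 5306 and 6366 in the wild-types (95016_at). The knockout arrays were below all others. The difference from wild-type was -0.73 ± 0.22 SE, a 1.66-fold lower signal (limma adjusted p = 0.639, and 0.0483 with the number as a block). From heterozygote it was -0.82 ± 0.22 (adjusted p = 0.506, and 0.0335 with the block), and from all other arrays it was -0.78 ± 0.17 (adjusted p = 0.139, and 0.0088 with the block). Within number 1 Nrp1 was -0.80 from wild-type, and within number 2 it was -0.67. The other Nrp1 probe set, 92773_at, read 862 and 2159 in the knockout arrays, 1499 and 3783 in heterozygote arrays and 1611 and 4946 in the wild-types. Its genotypes overlapped because the number 2 arrays were higher throughout, and within each number the knockout array was the lowest. The difference from wild-type was -1.02 ± 0.67 (adjusted p = 1.00, and 0.016 with the block), with -0.87 within number 1 and -1.18 within number 2. Nrp1 is therefore called only in the fit with the block. Nrp1 was not among the U74Bv2 members, nor Nrp2 among those of U74Av2, so the contrast between them rests on separate arrays.

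**Figure D3:**
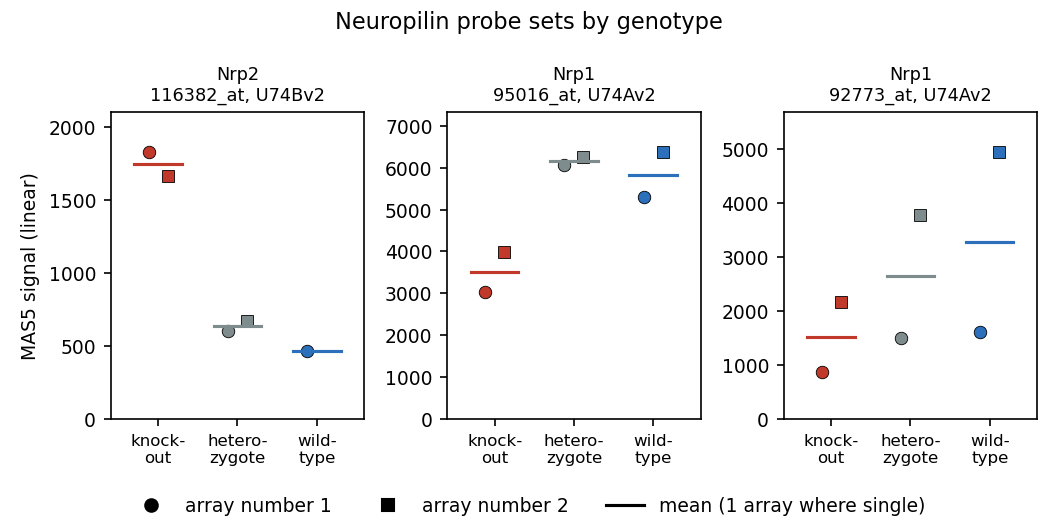
MAS5 signal (y axis, linear) of the 3 neuropilin probe sets in each array, by genotype; circles are arrays of number 1, squares those of number 2, and lines are means. Knockout arrays of Nrp2 lie at 1663 and 1828, above every other array, and those of Nrp1 by 95016_at lie at 3037 and 3975, below every other array.

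Semaphorins were the largest family, with 20 genes. On U74Av2, 12 of their 21 probe sets were tested, with a median of -0.18 against wild-type, and on U74Bv2, 9 of 15, with a median of 0.23. Sema3c, a secreted ligand of neuropilins, was too dim to be tested on either type, and it was picked out after its values were seen. Sema3c read 633 and 412 in the knockout arrays, 97.0 and 34.5 in heterozygote arrays and 40 in the wild-type (163742_i_at, a probe set with fewer probes, U74Bv2). The knockout arrays were far above the rest. By 110193_at, also on U74Bv2, Sema3c read 237 and 282 in the knockout arrays, 121 and 97.0 in heterozygote arrays and 82.8 in the wild-type. On U74Av2 it read 45.6 and 95.0 in the knockout arrays, 13.4 and 15.4 in heterozygote arrays and 9.8 and 17.7 in the wild-types (101178_at). In all 3 probe sets every knockout array exceeded every other array. The same order was seen in 5 of the 10 dim members on U74Bv2 and 3 of the 20 on U74Av2. Among all tested probe sets it was seen in 1111 of 7446 on U74Bv2 and 636 of 7453 on U74Av2. In a fit without the filter on dim probe sets, 163742_i_at differed from all other arrays by 2.44 ± 0.35 SE (limma adjusted p = 0.0203), 110193_at by 1.05 ± 0.27 (adjusted p = 0.162) and 101178_at by 0.88 ± 0.18 (adjusted p = 0.142, and 0.0508 with the block). The call of 163742_i_at was lost without heterozygote array 2 (0.0712), knockout array 1 (0.115), knockout array 2 (0.086) or wild-type array 1 (0.0822), and kept without heterozygote array 1 (0.0373). A dim member whose signal is high in 1 genotype only had to differ to be noticed here, and these values are a description.

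Sema3d, another secreted neuropilin ligand, read 1769 and 1445 in the knockout arrays, 1205 and 964 in heterozygote arrays and 710 in the wild-type (113851_at, U74Bv2). Knockout arrays were the highest and the wild-type array the lowest. The difference from wild-type was 1.12 ± 0.23 SE, a 2.17-fold higher signal (limma adjusted p = 0.0636), and from heterozygote it was 0.55 (adjusted p = 0.305), so neither passed. The difference from wild-type passed without heterozygote array 1 (0.0143), heterozygote array 2 (0.0291) or knockout array 2 (0.0384). Its dim probe set 110998_at read 118 and 113 in the knockout arrays, 72.3 and 52.1 in heterozygote arrays and 69.4 in the wild-type. Sema3a, the classical Nrp1 ligand, had -0.06 ± 0.33 against wild-type by its tested probe set.

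Sema6a, a transmembrane semaphorin that binds plexins, gave readings that depended on the probe set. By 111971_at it read 1964 and 2258 in the knockout arrays, 952 and 925 in heterozygote arrays and 1785 in the wild-type (U74Bv2). The heterozygote arrays were the low ones. Sema6a rose 2.18-fold over heterozygote (1.12 ± 0.16 SE, limma adjusted p = 0.0109), whereas the difference from wild-type was 0.23 ± 0.20 (adjusted p = 0.773) and heterozygote minus wild-type was -0.89 ± 0.20 (adjusted p = 0.895). The call over heterozygote was lost without the intensity trend of the test (adjusted p = 0.0532). By 106092_at it read 1424 and 1226 in the knockout arrays, 817 and 900 in heterozygote arrays and 629 in the wild-type. There wild-type was the lowest, and the difference from it was 1.02 ± 0.21 (adjusted p = 0.0677, and 0.0277 without heterozygote array 1). The remaining tested probe sets of Sema6a gave 0.52 (106091_g_at, which shares probes with other transcripts) and, on U74Av2, -0.09 (100762_at, at 68.4 and 309 in the knockout arrays, 331 and 137 in heterozygote arrays and 126 and 225 in the wild-types). The last, 106090_at, was dim, between 9.7 and 25.

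Sema4f, a transmembrane semaphorin and the brightest ligand probe set of its family on U74Av2, read 1815 and 1444 in the knockout arrays, 2593 and 2338 in heterozygote arrays and 2806 and 2479 in the wild-types (92460_at). The knockout arrays were the lowest. Sema4f differed from wild-type by -0.69 ± 0.22 SE, 1.61-fold (limma adjusted p = 0.679, and 0.0483 with the number as a block), and from all other arrays by -0.64 ± 0.16 (adjusted p = 0.216, and 0.0123 with the block). Within number 1 it was -0.62 from wild-type and within number 2 it was -0.76. Sema4b was called higher against all other arrays with the block alone, by 95387_f_at (0.76 ± 0.28, adjusted p = 0.477, and 0.0242 with the block), a probe set that can match a family of transcripts. It read 398 and 596 in the knockout arrays, 205 and 337 in heterozygote arrays and 202 and 362 in the wild-types. The other Sema4b probe sets gave 0.11 and -0.15 against wild-type. Sema6d, the brightest semaphorin on U74Bv2, was level, at 5154 and 5265 in the knockout arrays, 5707 and 5314 in heterozygote arrays and 5159 in the wild-type (163934_at, 0.01 ± 0.21, adjusted p = 0.994).

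**Figure D4:**
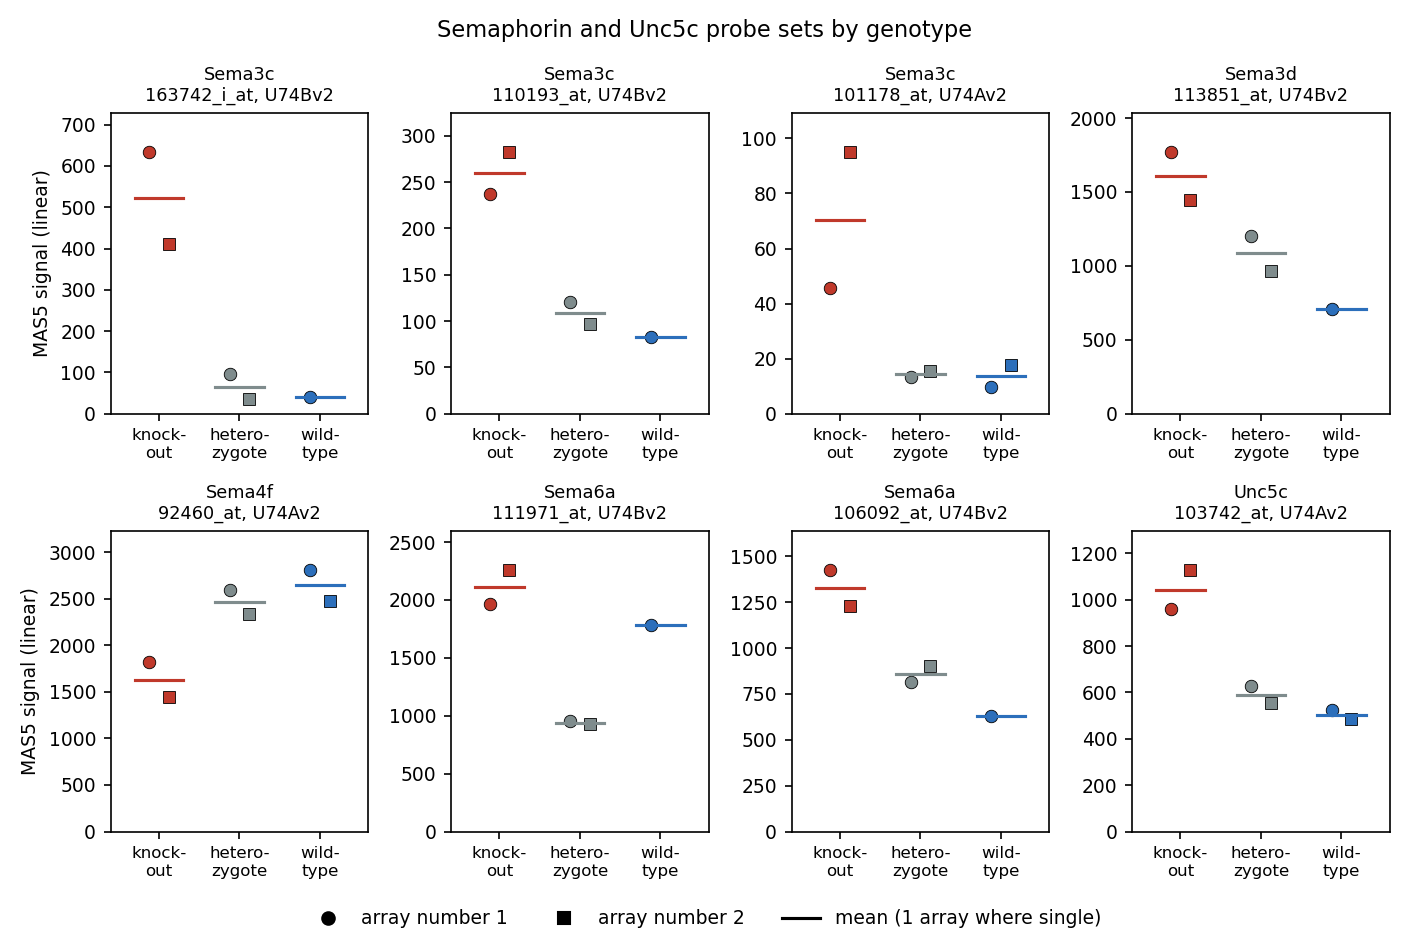
MAS5 signal (y axis, linear) of semaphorin and Unc5c probe sets in each array, by genotype; circles are arrays of number 1, squares those of number 2, and lines are means. The 3 Sema3c probe sets are higher in each knockout array than in any other, as are 1111 of all 7446 tested probe sets on U74Bv2 and 636 of 7453 on U74Av2. For Sema6a the heterozygote arrays are lowest by 111971_at at 925 and 952 but the wild-type array is lowest by 106092_at at 629.

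Plexins, the signalling receptors of semaphorins, had no called member in any comparison on either type, with the block on U74Av2 included. Plxna3, which pairs with neuropilins, read 1653 and 1568 in the knockout arrays, 1795 and 1782 in heterozygote arrays and 2198 and 1652 in the wild-types (102933_at, U74Av2, -0.24 ± 0.22). On U74Bv2 it read 1373 and 2118 in the knockout arrays, 2409 and 2556 in heterozygote arrays and 2502 in the wild-type (113278_at, -0.54 ± 0.26, limma adjusted p = 0.512). Both probe sets were lower on average in knockout than in wild-type, and on U74Bv2 both knockout arrays lay below the wild-type array. Plxna4, a co-receptor for Sema3a signalling, read 2070 and 2551 in the knockout arrays, 3569 and 2910 in heterozygote arrays and 2776 in the wild-type (110033_at, -0.27 ± 0.23, adjusted p = 0.768). Plxnd1, a receptor of Sema3e, differed from wild-type by -0.40 ± 0.26 (adjusted p = 1.00). The 6 tested plexin probe sets on U74Av2 spanned -0.40 to 0.52 against wild-type and the 6 on U74Bv2 spanned -0.54 to 0.15.

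Slit ligands were measured on U74Bv2 and did not pass. Slit1, a repellent ligand of Robo receptors, read 208 and 131 in the knockout arrays, 372 and 339 in heterozygote arrays and 362 in the wild-type. Its knockout arrays were the lowest, and the difference from all other arrays was -0.92 ± 0.23 SE (limma adjusted p = 0.0843). Slit2 gave -0.18 ± 0.27 against wild-type. Slit3, by a probe set that can match a family of transcripts, read 654 and 593 in the knockout arrays, 391 and 567 in heterozygote arrays and 483 in the wild-type (0.34 ± 0.28, adjusted p = 0.764). Robo1, a Slit receptor of neurons, read 312 and 481 in the knockout arrays, 260 and 128 in heterozygote arrays and 140 and 210 in the wild-types (103675_at, U74Av2). All knockout arrays exceeded the rest, but the difference from wild-type of 0.98 ± 0.37 did not pass (adjusted p = 0.85). Robo4, known from endothelium, read 252 and 404 in the knockout arrays, 380 and 239 in heterozygote arrays and 243 in the wild-type, and these overlapped. Robo3 was too dim to be tested.

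Unc5c, a receptor for repulsion by netrin, stood out among the netrin receptors. Unc5c read 958 and 1128 in the knockout arrays, 629 and 553 in heterozygote arrays and 523 and 485 in the wild-types (103742_at, U74Av2). The knockout arrays were above all others. It was 1.97-fold higher than in wild-type (0.98 ± 0.21 SE, limma adjusted p = 0.259, and 0.0332 with the number as a block) and 0.87 ± 0.17 higher than in all other arrays (adjusted p = 0.0802, and 0.012 with the block). Within number 1 the difference from wild-type was 0.82, and within number 2 it was 1.14. Its relatives on U74Bv2 had positive values that did not pass. Unc5a differed from wild-type by 0.62 ± 0.25 (adjusted p = 0.399). Unc5b read 914 and 1131 in the knockout arrays, 886 and 802 in heterozygote arrays and 771 in the wild-type (112955_at, 0.38 ± 0.22, adjusted p = 0.64), while its dim probe sets lay between 97.6 and 127 by 112956_at and between 34.9 and 103 by 106800_at. Dcc, the attractive netrin receptor, was too dim to be tested, at 47.6 and 36.6 in the knockout arrays, 65.2 and 37.9 in heterozygote arrays and 52.2 and 47.9 in the wild-types.

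Netrin ligands did not pass. Ntn1 read 427 and 329 in the knockout arrays, 408 and 298 in heterozygote arrays and 335 and 282 in the wild-types (97977_at, 0.25 ± 0.26, limma adjusted p = 1.00), with the genotypes overlapping. Its other probe set was dim, between 8.6 and 19.0. Ntn3 read 1060 and 831 in the knockout arrays, 693 and 799 in heterozygote arrays and 587 in the wild-type (164254_at, 0.64 ± 0.24, adjusted p = 0.345). Its knockout arrays were the highest. Ntng1, a membrane-anchored netrin relative, was dim, at 311 and 385 in the knockout arrays, 141 and 33.7 in heterozygote arrays and 125 in the wild-type. It differed from all other arrays by 1.5 ± 0.40 in the fit without a filter, which did not pass (adjusted p = 0.178).

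Of 30 member probe sets too dim to be tested, 20 were on U74Av2, with signals between 3.9 and 253.5, and 10 were on U74Bv2, with signals between 9.7 and 633.3. Tested without the filter against all other arrays, 0 of the 20 on U74Av2 were called, where 0.491% of all probe sets were, and 1 of the 10 on U74Bv2 was called, where 1.31% of all were. The called probe set measured Sema3c. At least 2 probe sets were tested for 14 genes. Their knockout minus wild-type differences had 1 sign for 10 of these genes and both signs for Sema4b, Sema6a, Sema6d and Sema7a.

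Heterozygote ganglia had no called member on either array type against wild-type (limma). None was called among all probe sets either, which is 0.0% on each type. At an unadjusted p under 0.05, 0 of 38 members passed on U74Av2, where 0.698% of all probe sets did, and 2 of 29 passed on U74Bv2, where 3.8% of all did. The median heterozygote minus wild-type difference of members was 0.08 on U74Av2 and 0.09 on U74Bv2.

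Other genes of guidance signalling, from a list of 64, are given for context. On U74Av2, 45 of their 54 probe sets were tested and 0 were called in any comparison without the block. With the block, the kinases Fyn (0.66) and Abl1 (0.55) were called higher against all other arrays. The actin-binding protein Ablim1 (-1.04) and the ephrin-cleaving protease Adam10 (-0.60) were called lower there. These were 4 of 45 probe sets (8.89%), where 3.57% of all were called. On U74Bv2, 48 of 52 probe sets were tested. Cntn2, an axonal adhesion molecule, fell against wild-type, reading 3144 and 3364 in the knockout arrays, 7941 and 6887 in heterozygote arrays and 7104 in the wild-type. It was the 1 of 48 called in that comparison (2.08%, where 1.4% of all were). Against heterozygote 3 of 48 were called, 1 higher and 2 lower (6.25%, where 1.71% of all were). Against all other arrays Chl1 rose (1.69, limma adjusted p = 0.00369), and Cntn2 (-1.15, adjusted p = 0.00261) and Ablim1 (-1.36, adjusted p = 0.00822) fell. Those were 3 of 48 probe sets (6.25%), where 2.93% of all were called. The median knockout minus wild-type difference of the list was 0.11 on U74Av2 and -0.0046 on U74Bv2.

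Cell type markers were read beside these results. Each sum given here takes only the probe set of highest mean signal for each measured gene of a list. Sensory neuron markers were bright, as the labelled tissue requires. On U74Av2, 15 of their 18 genes were measured, by 20 probe sets. The 15 genes summed to 66068 to 72563 in the knockout arrays, 79368 to 97545 in heterozygote arrays and 72639 to 73992 in the wild-types. Of 16 probe sets tested, 1 fell against wild-type (Avil, an actin regulator of sensory neurons), where 0.255% of all probe sets were called. Against all other arrays 2 fell (Avil and the synuclein Sncg), where 0.872% of all were called. The median difference of the 16 from wild-type was -0.35. With the number as a block, Nrp1, Sema4f and Unc5c were called. In that fit 4 of the 16 sensory neuron probe sets were called lower against wild-type (1.74% of all were called). The count was 5 against heterozygote (1.73% of all) and 7 against all other arrays (3.57% of all), and 0 were called higher. Schwann and satellite glia markers, 9 of 12 measured, summed to 22100 to 24328 in the knockout arrays, 20119 to 21724 in heterozygote arrays and 17554 to 19402 in the wild-types. Of 10 tested glial probe sets, 0 were called without the block, and their median difference from wild-type was 0.20. With the block, 1 was called lower against heterozygote (1.73% of all were called). Against all other arrays 1 was then called higher and 1 lower (3.57% of all). Mesenchyme and connective tissue markers, 17 of 17 measured, summed to 25076 to 29890 in the knockout arrays, 24737 to 28042 in heterozygote arrays and 21646 to 27789 in the wild-types. Of the 19 tested mesenchyme probe sets, 18 were positive against wild-type, where 3921 of all 7453 were. Their median was 0.30, and 0 were called, or 1 higher (Postn) against all other arrays with the block. In heterozygotes 17 of the 19 were positive against wild-type as well, with a median of 0.08, where 3649 of all 7453 were positive. Endothelial markers, 12 of 13 measured, summed to 3361 to 3691 in the knockout arrays, 3504 to 3831 in heterozygote arrays and 3639 to 3897 in the wild-types, with 0 of 15 called and a median of -0.18. On U74Bv2, sensory neuron markers, 7 of 18 measured, summed to 40010 to 47580 in the knockout arrays, 44873 to 46736 in heterozygote arrays and 49115 in the wild-type. Of 6 tested there, 1 fell against wild-type, where 1.4% of all probe sets were called. That probe set measured Pou4f1, the gene targeted in the knockout, so its fall says nothing about the other markers. Against all other arrays 2 fell, Pou4f1 again and the sodium channel Scn9a, where 2.93% of all were called. Glia were represented there by Sox10 alone, at 3082 to 4517 in the knockout arrays, 2863 to 3063 in heterozygote arrays and 2904 in the wild-type. No listed marker was at a signal of 0, the lowest being 1.8 in any array. Semaphorins, Unc5c and neuropilins are also made by glia, vessels and mesenchyme, and the part of these cells in the results was not tested.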

How the data were processed

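Members, gene lists and tests were chosen with earlier results of these data known. Each deposited value is an intensity, the linear signal of a probe set, which the authors made with MAS5 according to the submitters' processing notes. Version and scaling target were not stated there. Trimmed means lay between 500.26 and 500.29 on U74Av2 and between 497.61 and 498.38 on U74Bv2, so no scaling was added. Detection calls were not used. Symbols came from the platform annotation, updated through Entrez identifiers with RefSeq (GRCm38.p6), and upstream sequences came from RefSeq. Signals were taken as log2(signal + 50.0) on U74Av2 and log2(signal + 49.8) on U74Bv2, so fold changes understate those of dim probe sets. After removal of 66 control probe sets on U74Av2, probe sets at or below the 40th percentile of mean log2 signal were left out, leaving 7453 on U74Av2 and 7446 on U74Bv2.

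The limma 3.58.1 model (R 4.3.3) took genotype as its factor and all arrays of a type together, with an intensity trend in eBayes, two-sided, with Benjamini-Hochberg adjustment over all probe sets. The lone wild-type U74Bv2 array was assumed to vary like the others. The fit was tested on simulated data with independent noise in each array. These held no difference between label numbers, so they do not bear on that difference on U74Av2. Plots used matplotlib 3.10.9 in Python 3.11.15. The labels tell replicate arrays apart by number and do not say what the number marks, so separate pools are an assumption. No label ties arrays to single animals. The p-values reflect only the spread between replicate arrays, which may be technical, and the number of arrays limits the precision. Replicate arrays correlated at 0.921 to 0.933 on U74Av2 and at 0.938 to 0.944 on U74Bv2. The label numbers were taken to pair arrays on U74Av2, since the difference between number 1 and number 2 correlated between genotypes at 0.533, 0.571 and 0.619; on U74Bv2 the correlation was 0.103, over a single pair of genotypes.

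Per-array values are given for members called in any comparison, for tested members with a log2 difference of at least 1 from wild-type and no overlap, and for the brightest tested probe set of each family and type, with the other probe sets of those genes. Further members are named as examples, and Sema3c and Ntng1 were added after their values were seen. Alternatives were no filter, other pseudocounts, quantile normalization, no intensity trend, the number as a block, and leaving out each array. Beside the lists in the results, markers of skeletal muscle, macrophages and red blood cells had 0 called probe sets. Meis2 of the central nervous system list was called lower on U74Av2 against all other arrays (-1.75). Against wild-type (-1.74) and heterozygote (-1.76) it was called with the block only.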

Additional observations from a re-analysis of the deposited data

How the results depend on the processing

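The counts of called guidance probe sets on U74Av2 were 0 in each comparison, and became 4 against wild-type, 2 against heterozygote and 6 against all other arrays when the replicate block was fitted, where 130, 129 and 266 of all probe sets were called in place of 19, 14 and 65. Against all other arrays, 1 was called without the intensity trend (among 64 of all probe sets) and 1 after quantile normalization (among 76), Epha7 in both cases. On U74Bv2 the block, where numbers are not shown to pair arrays, gave 5 against wild-type and 5 against heterozygote in place of 2 and 3, and kept all of the calls made without it. It called 216 and 317 of all probe sets in place of 104 and 127. Without the filter 1 was called against wild-type, among 21 of all probe sets, and without the trend 40 of all were called. Leaving out 1 array gave 2 to 5 calls against wild-type, 3 to 5 against heterozygote and 2 to 4 against all other arrays; against heterozygote, without the filter 54 and without the trend 81 of all probe sets were called. Without 1 array, calls among all probe sets numbered 0 to 15 against wild-type, 0 to 11 against heterozygote and 17 to 42 against all other arrays on U74Av2, and 115 to 178, 130 to 188 and 112 to 202 on U74Bv2, where 218 were called against all other arrays with every array. Heterozygote against wild-type had 0 called members throughout. Leaving out the only wild-type array of U74Bv2 allows no comparison with wild-type. The remaining alternatives kept the counts within 1.5 times. For single probe sets, both pseudocounts changed none of 96 results, and leaving out 1 array changed the sign of 31 fits and kept direction and call in 438. Those sign changes all concern differences that were never called. Without 1 array, knockout minus wild-type ranged from -0.43 to 0.22 for Efna3 (100289_at), -0.25 to 0.46 for Ephb6 and -0.0014 to 0.029 for Sema6d. Knockout minus heterozygote ranged from -0.28 to 0.37 for Efna3, -0.37 to 0.34 for Ephb6, -0.11 to 0.29 for Ntn1, -0.22 to 0.37 for Robo4 and -0.042 to 0.53 for Efna5. Knockout minus all other arrays ranged from -0.36 to 0.29 for Efna3, -0.31 to 0.40 for Ephb6 and -0.13 to 0.45 for Robo4. Heterozygote minus wild-type ranged from -0.31 to 0.0016 for Efna3, -0.29 to 0.11 for Plxna3, -0.32 to 0.48 for Robo1, -0.15 to 0.40 for Ephb6, -0.18 to 0.34 for Epha7 (92906_at), -0.045 to 0.22 for Nrp1 (95016_at, and -0.0057 after quantile normalization), -0.041 to 0.36 for Ntn1, -0.023 to 0.55 for Robo4, -0.0094 to 0.56 for Efna5 and -0.27 to 0.21 for Slit3. The cause of these changes was not tested. Few arrays per genotype limit every value, and dim probe sets lie near the pseudocount. The settings that left out arrays from the fit of Sema3c without a filter were chosen after seeing the data, as was the block there, which gave 2.99 against wild-type (adjusted p = 0.0235) and 2.34 against heterozygote (adjusted p = 0.0101).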
